A study of Mus musculus with 6 samples.

Results

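Chemokines and their receptors were examined in mouse kidneys with a high or a low load of a mitochondrial tRNA mutation. The genes are 45 chemokines and chemokine receptors from a list, of 32285 genes in a read-count table. Leaving out those under 10 raw counts in every kidney kept 42 (28 ligands and 14 receptors): Ccl21a and Cxcl15 had 1 count each over all 6 kidneys, and Ccl24 had 8, 9 and 7 counts in high-load 1 to 3 and 3, 2 and 2 in low-load 1 to 3. A limit of 10 counts summed over the kidneys would keep Ccl24 and give 43.

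Chemokines are small secreted or membrane-held proteins that steer white blood cells along gradients, and they act through G protein-coupled receptors on the cells they attract. A few atypical receptors bind the same ligands without signalling through G proteins and remove or display them. In kidney, tubule cells, endothelium, fibroblasts and resident macrophages make inflammatory chemokines after injury, and the ligands group by receptor: Ccr2 for monocytes, Cxcr2 for neutrophils, Cxcr3 and Cxcr6 for T and natural killer cells, Cxcr5 for B cells.

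RNA was sequenced from kidneys of 6 female mice aged 100 weeks, all carrying a mutation of TrnE, the mitochondrial gene of the glutamate tRNA, at different loads. The 3 high-load kidneys came from mice labelled with 75%, 75% and 80% mutated mitochondrial DNA (high-load 1, 2 and 3). The 3 low-load kidneys, the study's controls, came from mice labelled with 10%, 5% and 15% (low-load 1, 2 and 3), so the controls carried the mutation too. The labels give neither the strain nor the part of the kidney taken. Libraries held 17449270 to 18865997 counts. Values are CPM, counts scaled by library size and TMM factors, fold changes are high load over low load, and tests are edgeR's two-sided quasi-likelihood test with Benjamini-Hochberg adjustment over 15955 genes, where an adjusted p under 0.05 is a call. The p-values measure the spread among these 3 against 3 kidneys.

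High-load 1 differed from the other libraries in tissue markers. Summed markers of urothelium were 260.5, 4.40 and 3.90 CPM in high-load 1 to 3 and 52.9, 38.2 and 15.4 CPM in low-load 1 to 3. Those of fat were 121, 36.1 and 0.835 CPM in high-load 1 to 3 and 1.22, 0.911 and 2.29 CPM in low-load 1 to 3. Those of B cells were 218, 32.8 and 19.1 CPM in high-load 1 to 3 and 23.4, 16.7 and 21.0 CPM in low-load 1 to 3. Those of the proximal tubule were 3602, 10308 and 7435 CPM in high-load 1 to 3 and 12369.6, 13987 and 13660.0 CPM in low-load 1 to 3, and high-load 1 was the lowest. All 3 high-load sums of the proximal tubule lay below all 3 low-load sums, so leaving out high-load 1 does not remove this difference. The fat sum of high-load 2 also lay above every low-load sum. Tubule and podocyte markers were detected in both groups: none of the 8 proximal tubule, 9 distal and collecting duct and 5 podocyte genes was at 0 in all libraries. In whole tissue, more cells of a type and more RNA per cell cannot be told apart. Values without high-load 1 are given for the main counts and for several genes.

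Most chemokine transcripts had higher values in high-load kidneys than in low-load kidneys, with a median log2 fold change of 1.27 over 27 tested ligands and 0.79 over 10 tested receptors. Of the 42 genes, 37 had enough counts to test, and 32 of them (86.5%) had a fold change above 1, against 50.9% of all genes tested. None of the 37 passed the adjusted test, which called 0.0188% of all genes. At an adjusted p under 0.1 there were 8 higher and 0 lower, where that limit took 2.59% and 0.608% of all genes. They were Cxcl17, Cxcl16, Cx3cr1, Ccl8, Ccl7, Cxcl9, Ccl4 and Ccl12. This number was 17 without high-load 2, and 0 without each of the other kidneys in turn. The share of all genes at that limit without high-load 2 was not computed, so the 17 has no background. At an adjusted p under 0.05 that fit called 807 of all genes, against 3 in the fit of all 6 kidneys. An unadjusted p under 0.05 was met by 21 higher genes (56.8% of those tested, against 14.0% of all genes) and 1 lower, Cxcl12 (2.70%, against 10.2%). Without high-load 1 it was met by 14 higher and 0 lower of 38 chemokine genes tested. That fit called 0 of all genes at an adjusted p under 0.05. Its share of all genes at the unadjusted limit was not computed, so these 2 counts have no background. In the fit of all 6 kidneys the higher genes were 18 of 27 tested ligands and 3 of 10 tested receptors. For 16 genes every high-load kidney lay above every low-load kidney (43.2%, against 17.1% of all genes), and for 1 every high-load kidney lay below (2.70%, against 15.8%). The median log2 fold change was 1.02 over the 37 genes, against 0.0067 over all genes tested, and 0.72 without high-load 1. At an adjusted p under 0.05 DESeq2, an alternative count test, called 14 higher and 0 lower among 38 of these genes, where it called 6.67% and 3.88% of all genes.

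The filter on low counts bears on these counts. Ccl7, Ccl11, Ccl20, Cxcl2, Cxcl5, Cxcl17 and Cxcr5 reached it in all 3 high-load kidneys but in fewer than 3 low-load kidneys, so they passed through the group where they were high. Among the other 30 genes, 15 were higher (50%, against 14.0% of all genes) and 1 lower (3.33%, against 10.2%) at an unadjusted p under 0.05. Without overlap there were 11 higher (36.7%, against 17.1%) and 1 lower (3.33%, against 15.8%). At an adjusted p under 0.1 there were 6 higher and 0 lower, and the median log2 fold change was 0.79. The shares of all genes still hold genes that passed the filter through 1 group.

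**Figure D1:**
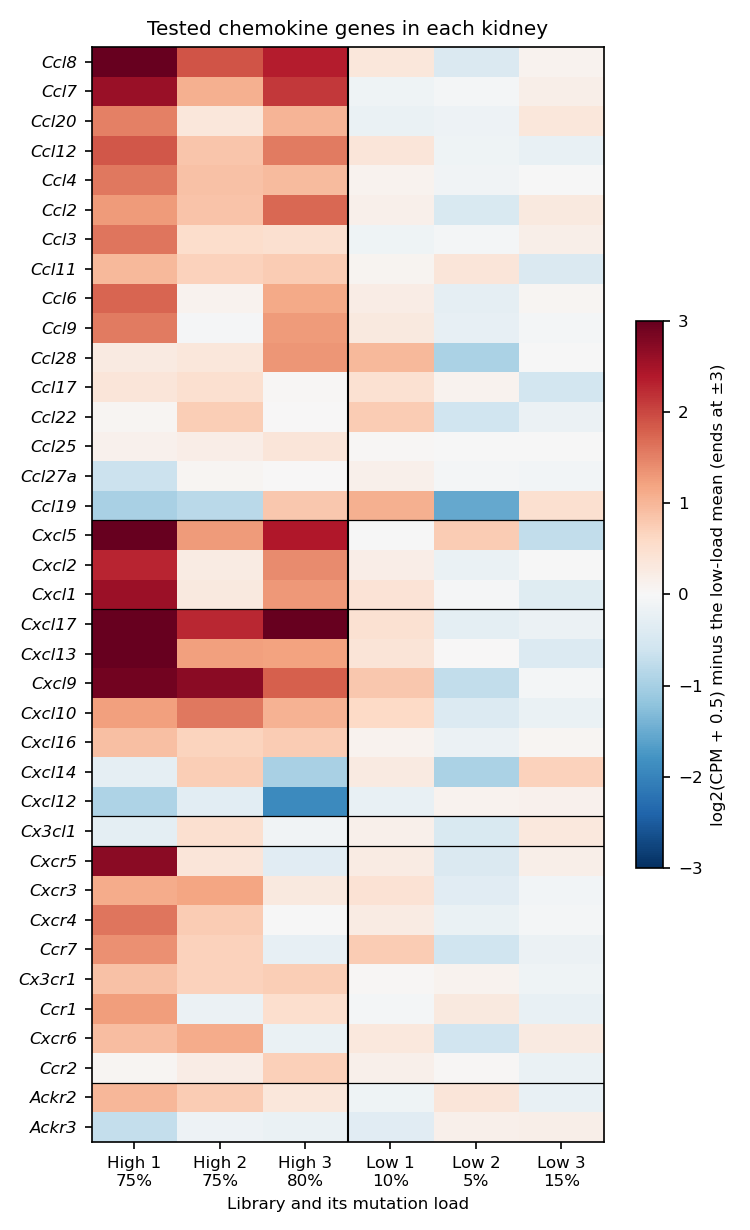
Each row is 1 of the 37 tested genes and each column 1 kidney with its mutation load; colour is log2(CPM + 0.5) minus the mean of the low-load kidneys, with colours ending at 3 in either direction. From the top, blocks hold CC ligands, neutrophil-directed CXC ligands, other CXC ligands, Cx3cl1, signalling receptors and atypical receptors; red fills most of the high-load columns, deepest in high-load 1, and Cxcl12 is blue in all 3.

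High-load 1 was the highest of the 6 libraries for 21 of the 37 genes (56.8%, against 29.4% of all genes tested). High-load 2 was the highest for 6, high-load 3 for 5 and a low-load kidney for 5. Among the high-load kidneys, high-load 2 had the lowest value for 16 genes. Mean deviations, on the log2(CPM + 0.5) scale, from the low-load mean over the 37 genes were 1.28, 0.67 and 0.75 in high-load 1 to 3, and 0.25, -0.22 and -0.033 in low-load 1 to 3. In these means all 3 high-load kidneys lay above all 3 low-load kidneys.

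Per kilobase of exon, fractalkine (Cx3cl1) was the most abundant member in both groups, at 47.7 ± 13.9 RPKM in high-load and 46.7 ± 12.1 RPKM in low-load kidneys (SD, n = 3). Next in low-load kidneys, within the spread of Cx3cl1, came the stromal ligand Cxcl12, at 19.8 ± 10.0 RPKM in high-load and 37.5 ± 4.90 RPKM in low-load kidneys. Cxcl16 was at 29.3 ± 2.43 RPKM in high-load and 17.0 ± 1.71 RPKM in low-load kidneys, and the epithelial ligand Cxcl14 at 22.3 ± 13.4 RPKM in high-load and 24.7 ± 12.4 RPKM in low-load kidneys. Ccl8 was at 36.6 ± 22.2 RPKM in high-load and 4.84 ± 1.51 RPKM in low-load kidneys, the second highest mean of the high-load group, with an SD that spans its neighbours there. Among receptors the atypical receptor Ackr3 had the highest level per kilobase, at 12.9 ± 2.60 RPKM in high-load and 16.5 ± 3.16 RPKM in low-load kidneys.

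Ligands of Ccr2, the receptor that brings monocytes into tissue, had higher values in all 3 high-load kidneys than in any low-load kidney, at an adjusted p over 0.05. Ccl2, the main monocyte attractant, was at 10.8, 7.87 and 14.8 CPM in high-load 1 to 3, against 4.71, 2.92 and 5.18 CPM in low-load 1 to 3 (log2 fold change 1.38, SE 0.31, edgeR adjusted p 0.102). Ccl7, which binds Ccr1, Ccr2 and Ccr3, was at 5.67, 1.63 and 3.95 CPM in high-load 1 to 3, against 0.444, 0.486 and 0.654 CPM in low-load 1 to 3 (log2 fold change 2.81, SE 0.51, edgeR adjusted p 0.0946). Ccl12, a mouse ligand of Ccr2, was at 6.24, 2.82 and 4.95 CPM in the high-load and 1.89, 1.22 and 1.09 CPM in the low-load kidneys (log2 fold change 1.74, SE 0.38, edgeR adjusted p 0.0981). None of these 3 genes had overlapping groups, and the low-load values of Ccl7 rest on 8 to 12 counts a library. Without high-load 1 the log2 fold change of Ccl7 was 2.38. Ccr2 itself was at 22.2, 25.2 and 35.2 CPM in high-load 1 to 3, against 23.8, 22.0 and 18.7 CPM in low-load 1 to 3 (log2 fold change 0.36, SE 0.19, edgeR adjusted p 0.289). Its groups overlapped, so ligand and receptor values differed: log2 ratios of Ccl2 to Ccr2 counts were -1.04, -1.68 and -1.25 in high-load 1 to 3, against -2.34, -2.91 and -1.85 in low-load 1 to 3.

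Neighbours of these ligands on chromosome 11 had the same direction. Ccl8, which in mice acts on Ccr8, was at 31.6, 10.2 and 14.3 CPM in high-load 1 to 3, against 3.16, 1.64 and 2.62 CPM in low-load 1 to 3 (log2 fold change 2.91, SE 0.49, edgeR adjusted p 0.0936). Its lowest high-load value was 3.23 times its highest low-load value, and without high-load 1 the log2 fold change was 2.30. The eosinophil attractant Ccl11 (eotaxin) was at 1.56, 1.19 and 1.28 CPM in the high-load and 0.610, 0.851 and 0.272 CPM in the low-load kidneys (log2 fold change 1.22, SE 0.42, edgeR adjusted p 0.157), with no overlap between groups at 5 to 33 counts a library. Ccl2, Ccl7, Ccl11, Ccl12 and Ccl8 lie within 81.2 kb on chromosome 11 (82035571 to 82116799, mm10), and 5 of 5 were higher at an unadjusted p under 0.05 with no overlap, where 14.0% and 17.1% of all genes were. Ccl7 and Ccl11 are among the genes that passed the filter through the high-load kidneys.

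A second group on chromosome 11 (83572919 to 83664683) holds Ccl9, Ccl6, Ccl3 and Ccl4, and all 4 were higher at an unadjusted p under 0.05, as were 14.0% of all genes. Ccl4, made by activated macrophages and T cells, was at 3.64, 2.06 and 2.17 CPM in high-load 1 to 3, against 0.998, 0.790 and 0.872 CPM in low-load 1 to 3 (log2 fold change 1.56, SE 0.32, edgeR adjusted p 0.0967), without overlap. Ccl3, a Ccr1 ligand from the same kinds of cells, was at 3.78, 1.52 and 1.45 CPM in the high-load and 0.777, 0.851 and 1.09 CPM in the low-load kidneys (log2 fold change 1.31, SE 0.45, edgeR adjusted p 0.158), also without overlap, and its log2 fold change was 0.71 without high-load 1. Ccl6 and Ccl9, rodent Ccr1 ligands of myeloid cells, had groups that overlapped. Ccl6 was at 39.1, 12.1 and 25.3 CPM in high-load 1 to 3, against 13.1, 9.18 and 11.8 CPM in low-load 1 to 3 (log2 fold change 1.17, SE 0.40, edgeR adjusted p 0.159). Ccl9 was at 24.4, 7.82 and 20.2 CPM in the high-load and 9.93, 6.68 and 7.63 CPM in the low-load kidneys (log2 fold change 1.11, SE 0.41, edgeR adjusted p 0.172). In both genes high-load 2 lay within the low-load range. Ccr1, their receptor on monocytes and neutrophils, was at 7.28, 2.39 and 4.12 CPM in high-load 1 to 3, against 2.61, 3.46 and 2.29 CPM in low-load 1 to 3 (log2 fold change 0.73, SE 0.42, edgeR adjusted p 0.329), and high-load 2 was again within the low-load range. Without high-load 1 its log2 fold change was 0.23, and those of Ccl6 and Ccl9 were 0.72 and 0.79.

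**Figure D2:**
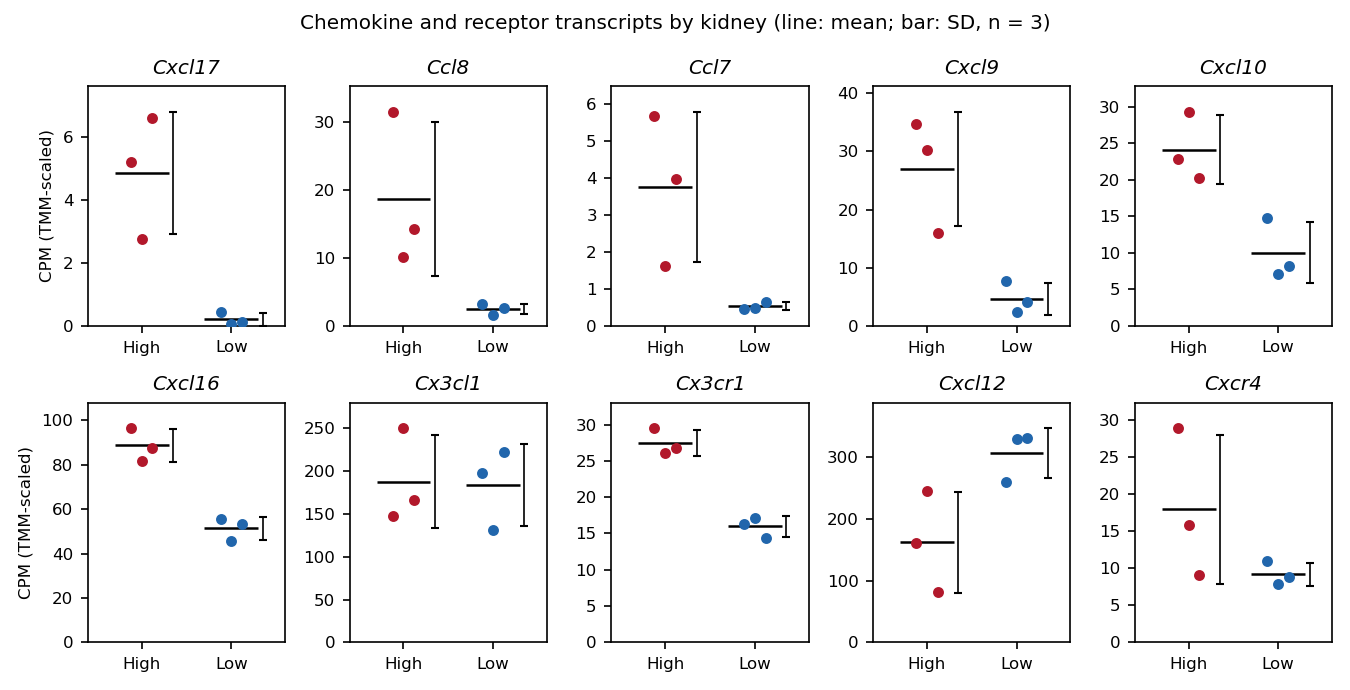
TMM-scaled CPM of 10 chemokine and receptor genes, with 1 point per kidney, high load left of low load; lines are means and bars SD of 3 kidneys. Points of the groups do not overlap for Cxcl17, Ccl8, Ccl7, Cxcl9, Cxcl10, Cxcl16, Cx3cr1 and Cxcl12, and they overlap for Cx3cl1 and Cxcr4.

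Most macrophage and monocyte markers also had higher values in high-load kidneys. Of 10 macrophage markers, 9 were higher and 0 lower at an unadjusted p under 0.05, as were 14.0% and 10.2% of all genes. The remaining marker, Csf1r, was at 113.7 ± 4.07 CPM in high-load and 117.3 ± 40.8 CPM in low-load kidneys (SD, n = 3) (log2 fold change -0.046, SE 0.25, edgeR adjusted p 0.928), with overlapping groups. Of the 10, 0 had an adjusted p under 0.05. Their sum was 1353, 684 and 949.7 CPM in high-load 1 to 3 and 518, 414 and 527 CPM in low-load 1 to 3. Fcgr1, an IgG receptor of macrophages, was at 18.3 ± 5.89 CPM in high-load and 5.70 ± 0.873 CPM in low-load kidneys (SD, n = 3), and C1qa, a complement subunit that resident macrophages make, at 139 ± 42.6 CPM in high-load and 53.5 ± 3.54 CPM in low-load kidneys (SD, n = 3). Of 7 monocyte markers 6 were tested, 3 were higher and 0 lower, Ly6c2 among them at 12.7 ± 5.08 CPM in high-load and 3.50 ± 0.557 CPM in low-load kidneys (SD, n = 3), and the sum of the list was 132, 54.9 and 86.6 CPM in high-load 1 to 3 and 38.7, 36.3 and 34.6 CPM in low-load 1 to 3. When each gene was divided by the summed macrophage markers of its own library, 8 of the 37 genes kept high-load kidneys above all low-load kidneys: Ccl4, Ccl7, Ccl8, Ccl12, Cxcl5, Cxcl9, Cxcl13 and Cxcl17. Ccl8 equalled 2.33, 1.49 and 1.51% in high-load 1 to 3, against 0.611, 0.396 and 0.497% in low-load 1 to 3 of the macrophage sum. Ccl2 equalled 0.796, 1.15 and 1.56% in high-load 1 to 3, against 0.911, 0.705 and 0.983% in low-load 1 to 3, and its groups overlapped on this scale. Another 4 genes, Ccl25, Ccl27a, Cxcl12 and Ackr3, lay below all low-load kidneys on it. The share of all genes that lie above or below on this scale was not computed, so these counts have no background. The macrophage sum itself was higher in every high-load kidney, and Ccl7, Cxcl5 and Cxcl17 passed the filter through the high-load kidneys. This division was chosen after the values were seen, and the part of macrophage number in the other values was not tested.

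The interferon-induced ligands of Cxcr3, which guide activated T and natural killer cells, had higher values in every high-load kidney than in any low-load kidney. Cxcl9 was at 34.8, 30.2 and 15.9 CPM in high-load 1 to 3, against 7.71, 2.31 and 4.03 CPM in low-load 1 to 3 (log2 fold change 2.52, SE 0.48, edgeR adjusted p 0.0946). Cxcl10 was at 22.8, 29.3 and 20.2 CPM in high-load 1 to 3, against 14.8, 7.05 and 8.23 CPM in low-load 1 to 3 (log2 fold change 1.27, SE 0.30, edgeR adjusted p 0.107). High-load 2 was the highest library for Cxcl10 and the second highest for Cxcl9. Exons of Cxcl10 share 133 bases with Art3 on the opposite strand. Cxcr3 was at 7.42, 7.76 and 3.95 CPM in the high-load and 4.44, 2.37 and 2.94 CPM in the low-load kidneys (log2 fold change 0.97, SE 0.35, edgeR adjusted p 0.166), where high-load 3 lay within the low-load range. Log2 ratios of Cxcl9 to Cxcr3 counts were 2.23, 1.96 and 2.01 in high-load 1 to 3, against 0.80, -0.037 and 0.45 in low-load 1 to 3, so the groups did not overlap. Those of Cxcl10 to Cxcr3 overlapped, at 1.62, 1.92 and 2.35 in high-load 1 to 3, against 1.73, 1.57 and 1.48 in low-load 1 to 3.

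Cxcl9 and Cxcl10 are neighbours within 27.5 kb on chromosome 5, and their T cell setting was measured with 10 T cell markers. Of these, 7 were higher and 0 lower at an unadjusted p under 0.05, as were 14.0% and 10.2% of all genes, and 0 had an adjusted p under 0.05. Cd3e, Cd4 and Cd5 did not reach that limit, with log2 fold changes of 0.88, 1.21 and 0.99 (edgeR unadjusted p 0.136, 0.0577 and 0.0810). Cd3e, a subunit of the T cell receptor complex, was at 4.19 ± 1.63 CPM in high-load and 2.27 ± 1.30 CPM in low-load kidneys (SD, n = 3). The summed level was 86.0, 75.1 and 46.1 CPM in high-load 1 to 3 and 43.3, 18.8 and 31.6 CPM in low-load 1 to 3. Thy1, a surface protein of T cells, was at 18.7 ± 2.21 CPM in high-load and 7.24 ± 3.25 CPM in low-load kidneys (SD, n = 3), and Lat, an adaptor of T cell receptor signalling, at 7.35 ± 1.76 CPM in high-load and 4.21 ± 0.635 CPM in low-load kidneys (SD, n = 3). Of 8 natural killer cell markers, 6 were tested and 0 were higher or lower, with a sum of 19.4, 13.7 and 7.79 CPM in high-load 1 to 3 and 10.5, 5.16 and 8.66 CPM in low-load 1 to 3. The part of these cells in the Cxcr3 values was not tested.

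The promoter of Cxcl10 is shown because its matches to motifs of the kappaB and interferon pathways can be read in a short stretch. It is printed 5′ to 3′ on the gene's strand (minus), from 240 bases before the RefSeq start to the base before it, in GRCm38.p6 (mm10). Capitals mark, in order, an interferon-stimulated response element (TTTC, any 2 bases, TTTC, here on the other strand), 2 matches to the kappaB consensus of NF-kappaB, and an AP-1 site (TGANTCA).
Cxcl10, chr5:92348890-92349129: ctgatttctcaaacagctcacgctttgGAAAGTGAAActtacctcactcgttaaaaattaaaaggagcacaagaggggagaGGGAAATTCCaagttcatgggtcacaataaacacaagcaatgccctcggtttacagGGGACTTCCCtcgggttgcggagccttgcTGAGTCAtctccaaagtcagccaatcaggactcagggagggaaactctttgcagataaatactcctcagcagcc

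Ligands of Cxcr2, which attract neutrophils and carry a glutamate-leucine-arginine motif before the CXC cysteines, were highest in high-load 1. Cxcl5 was at 13.6, 1.52 and 3.90 CPM in high-load 1 to 3, against 0.333, 0.911 and 0 CPM in low-load 1 to 3 (log2 fold change 3.95, SE 1.16, edgeR adjusted p 0.130), and low-load 3 had 0 counts. Cxcl1 was at 15.4, 2.77 and 6.07 CPM in high-load 1 to 3, against 3.05, 2.13 and 1.58 CPM in low-load 1 to 3 (log2 fold change 1.84, SE 0.63, edgeR adjusted p 0.158), with high-load 2 inside the low-load range. Cxcl2 was at 4.63, 0.760 and 2.34 CPM in the high-load and 0.721, 0.425 and 0.545 CPM in the low-load kidneys (log2 fold change 2.18, SE 0.66, edgeR adjusted p 0.136), with groups that did not overlap, although the lowest high-load and the highest low-load value were 0.760 and 0.721 CPM. All 3 tested genes of this class were higher at an unadjusted p under 0.05, as were 14.0% of all genes, and Cxcl2 and Cxcl5 passed the filter through the high-load kidneys. Without high-load 1 their log2 fold changes were 2.72 for Cxcl5, 0.97 for Cxcl1 and 1.44 for Cxcl2, and without low-load 2 that of Cxcl5 was 5.21.

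Their receptor Cxcr2 was too low to test, with 12, 1 and 16 counts in high-load 1 to 3 and 2, 7 and 6 in low-load 1 to 3. Neutrophil markers were low too. The sum of 8 markers was 20.7, 7.87 and 32.0 CPM in high-load 1 to 3 and 6.99, 24.0 and 5.77 CPM in low-load 1 to 3, so low-load 2 exceeded high-load 1 and high-load 2. Ly6g, a defining marker, had 3, 1 and 4 counts in high-load 1 to 3 and 0, 2 and 0 in low-load 1 to 3. S100a8, an abundant neutrophil protein, had 80, 6 and 147 counts in high-load 1 to 3 and 8, 116 and 10 in low-load 1 to 3. The groups overlapped for it, and of 3 markers tested 1, the growth factor receptor gene Csf3r, was higher at an unadjusted p under 0.05. Of all genes 14.0% were.

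Promoters of Cxcl1 and Cxcl2 carry the same kappaB sequence, and Ccl20, the chemokine ligand of Ccr6, has a kappaB match on the other strand. The 120 bases before the RefSeq start of each (plus strand, GRCm38.p6) follow, 5′ to 3′, with the kappaB matches in capitals. In Cxcl1 and Cxcl2 a match on the other strand begins 1 base later, so 11 letters are capital.
Cxcl1, chr5:90891125-90891244: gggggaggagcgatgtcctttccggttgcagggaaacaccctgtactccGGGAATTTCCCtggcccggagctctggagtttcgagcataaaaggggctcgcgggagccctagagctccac
Cxcl2, chr5:90903779-90903898: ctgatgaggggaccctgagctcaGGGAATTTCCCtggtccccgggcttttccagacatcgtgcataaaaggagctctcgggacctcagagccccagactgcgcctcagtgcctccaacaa
Ccl20, chr1:83116646-83116765: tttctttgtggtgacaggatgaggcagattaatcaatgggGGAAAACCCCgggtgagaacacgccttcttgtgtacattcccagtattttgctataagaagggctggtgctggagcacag

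RefSeq promoters were at hand for 33 of the 42 genes, and 4 motifs were searched on both strands of the 250 bases before the start. The kappaB consensus was found in 7 of 33 genes (21.2%, against 4.46% of 27025 genes): Cxcl1, Cxcl2, Cxcl10, Ccl9, Ccl20, Ccr6 and Ackr2. No match overlapped a match of another motif, while kappaB, AP-1 and gamma-activated matches can be read on both strands at once. The interferon-stimulated response element was found in Cxcl10, Ccl19 and Cxcl14 (9.09%, against 3.46%). A gamma-activated site (TTCNNNGAA) was found in Ccl17, Ccr6 and Cxcl14 (9.09%, against 8.13%), and an AP-1 site in Ccl27a, Ccl9 and Cxcl10 (9.09%, against 7.82%). A match in these letters is not a measured binding site. In this window Ccl8, Cxcl9 and Cxcl12 held no match to the 4 motifs.

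Cxcl16 and Cxcr6 form a pair in which the ligand is made as a membrane protein, shed by ADAM proteases and sensed by T and natural killer T cells. Cxcl16 (chr11:70453983-70459984, minus strand, mm10) was at 96.4, 81.8 and 87.7 CPM in high-load 1 to 3, against 55.3, 45.5 and 53.1 CPM in low-load 1 to 3 (log2 fold change 0.79, SE 0.11, edgeR adjusted p 0.0784). Its means were 88.6 ± 7.35 CPM in high-load and 51.3 ± 5.16 CPM in low-load kidneys (SD, n = 3), and its log2 fold change lay between 0.71 and 0.85 when any 1 library was left out. Cxcl16 shares 552 exon bases with Zmynd15 on the opposite strand, and the strand setting of the counting is not known from the labels. Cxcr6 was at 7.14, 8.14 and 3.01 CPM in the high-load and 4.49, 2.19 and 4.36 CPM in the low-load kidneys (log2 fold change 0.73, SE 0.44, edgeR adjusted p 0.346), with overlapping groups. Log2 ratios of Cxcl16 to Cxcr6 counts overlapped as well. Relative to the summed macrophage markers Cxcl16 was at 7.12, 11.9 and 9.23% in high-load 1 to 3, against 10.7, 11.0 and 10.1% in low-load 1 to 3, and the groups overlapped.

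In the fractalkine pair the groups did not overlap for the receptor transcript and overlapped for the ligand transcript. Cx3cr1, the fractalkine receptor of monocytes and resident macrophages, was at 29.5, 26.1 and 26.8 CPM in high-load 1 to 3, against 16.3, 17.2 and 14.4 CPM in low-load 1 to 3 (log2 fold change 0.78, SE 0.11, edgeR adjusted p 0.0784). Its exons share 78 bases with Gm33858 on the opposite strand. Cx3cl1, held on epithelium and endothelium until it is shed, was at 147, 249.7 and 166 CPM in high-load 1 to 3, against 198, 131 and 222 CPM in low-load 1 to 3 (log2 fold change 0.030, SE 0.27, edgeR adjusted p 0.956). Its direction depended on single libraries, with log2 fold changes of -0.23 without high-load 2 and -0.17 without low-load 2. Adam17, a protease that sheds Cx3cl1, was at 50.9 ± 3.81 CPM in high-load and 39.7 ± 1.89 CPM in low-load kidneys (SD, n = 3) (log2 fold change 0.36, SE 0.088, edgeR adjusted p 0.111). Log2 ratios of Cx3cl1 to Cx3cr1 counts overlapped, at 2.32, 3.26 and 2.63 in high-load 1 to 3, against 3.61, 2.92 and 3.94 in low-load 1 to 3. Cx3cr1 equalled 2.18, 3.81 and 2.82% in high-load 1 to 3, against 3.14, 4.15 and 2.74% in low-load 1 to 3 of the macrophage sum, with overlapping groups.

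**Figure D3:**
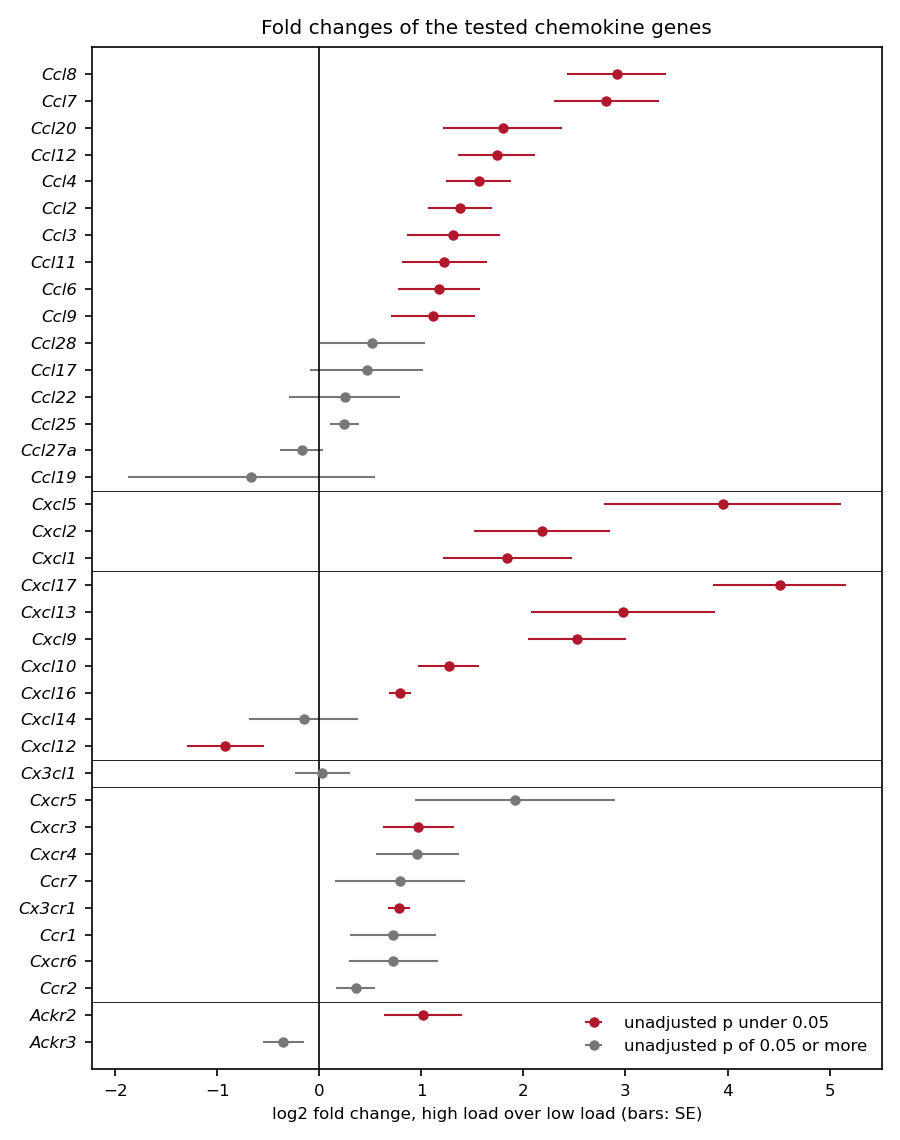
Points are log2 fold changes, high load over low load, of the 37 tested genes and bars their standard errors; red marks an unadjusted p under 0.05. Cxcl17 lies farthest to the right at 4.51, and Cxcl12 is the single red point to the left of 0, at -0.92.

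The homeostatic ligand Cxcl12, which stromal cells make to hold and guide cells that carry Cxcr4, had lower values in all 3 high-load kidneys than in any low-load kidney. Cxcl12 (chr6:117168535-117181367, plus strand, mm10) was at 160.2, 245 and 81.0 CPM in high-load 1 to 3, against 260.3, 328 and 331 CPM in low-load 1 to 3 (log2 fold change -0.92, SE 0.37, edgeR adjusted p 0.198). Its unadjusted p was 0.0447, and it was 0.0665 when only library totals were used for scaling. Without high-load 1 it was 0.111, and without low-load 1, 2 or 3 it lay between 0.0584 and 0.102. Without high-load 3 its log2 fold change was -0.60, and without high-load 2 it was -1.34. Cxcr4 was at 28.9, 15.9 and 9.07 CPM in high-load 1 to 3, against 10.9, 7.90 and 8.83 CPM in low-load 1 to 3 (log2 fold change 0.96, SE 0.40, edgeR adjusted p 0.207), with high-load 3 inside the low-load range and a log2 fold change of 0.44 without high-load 1. Ackr3, which binds and clears Cxcl12, was at 33.1, 49.1 and 47.1 CPM in high-load 1 to 3, against 42.9, 60.6 and 61.8 CPM in low-load 1 to 3 (log2 fold change -0.35, SE 0.20, edgeR adjusted p 0.317). Its groups overlapped through high-load 2 and 3, which lay above low-load 1.

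Ratios within a library do not depend on library scaling. Log2 ratios of Cxcl12 to Cxcr4 counts were 2.47, 3.95 and 3.16 in high-load 1 to 3, against 4.57, 5.38 and 5.23 in low-load 1 to 3, with no overlap. Those of Cxcl12 to Ackr3 were 2.27, 2.32 and 0.78 in high-load 1 to 3, against 2.60, 2.44 and 2.42 in low-load 1 to 3, also with no overlap, and the nearest values were those of high-load 2 and low-load 3. At an unadjusted p under 0.05, 14.0% of all genes were higher and 10.2% lower. Of 8 endothelial markers 0 were higher and 2 (Tek and Flt1) lower at that limit, with a sum of 407, 712 and 461 CPM in high-load 1 to 3 and 669, 622 and 786 CPM in low-load 1 to 3. Of 8 fibroblast and pericyte markers 3 (Col1a1, Col1a2 and Col3a1, collagen genes) were higher and 0 lower, with a sum of 842, 1102 and 707 CPM in high-load 1 to 3 and 662, 402 and 672 CPM in low-load 1 to 3. The other members had fold changes of both signs. Pdgfra was at 37.7, 70.8 and 28.7 CPM in high-load 1 to 3, against 61.4, 56.9 and 86.3 CPM in low-load 1 to 3 (log2 fold change -0.58, SE 0.34, edgeR adjusted p 0.339). Log2 fold changes of Pdgfrb, Dcn, Lum and Rgs5 were 0.22, 0.64, 0.55 and -0.063. The part of stromal or endothelial cell number in the Cxcl12 values was not tested.

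The lymphoid follicle genes stood out in high-load 1. Cxcl13 (chr5:95956951-95961068, plus strand), which draws B cells into follicles, was at 78.1, 10.2 and 10.1 CPM in high-load 1 to 3, against 5.49, 4.07 and 2.94 CPM in low-load 1 to 3 (log2 fold change 2.98, SE 0.90, edgeR adjusted p 0.135). Without high-load 1 its log2 fold change was 1.28, and high-load 2 and 3 were still above every low-load kidney. Its receptor Cxcr5 was at 8.70, 1.30 and 0.612 CPM in high-load 1 to 3, against 1.16, 0.547 and 1.09 CPM in low-load 1 to 3 (log2 fold change 1.92, SE 0.98, edgeR adjusted p 0.274), and its log2 fold change was 0.034 without high-load 1. Exons of Cxcr5 share 110 bases with Bcl9l on the opposite strand. Ccr6, a receptor on B cells and on T helper cells that make interleukin-17, was too low to test, with 83, 8 and 7 counts in high-load 1 to 3 and 4, 4 and 14 in low-load 1 to 3. Cd79a, a subunit of the B cell receptor, had 1335, 216 and 126 counts in high-load 1 to 3 and 102, 83 and 88 in low-load 1 to 3. High-load 1 had the highest counts of it, as of Cxcl13, Cxcr5 and Ccr6, and the part of B cell number in these values was not tested. Of 7 tested B cell markers 1, Cd79a, was higher at an unadjusted p under 0.05. Of all genes 14.0% were, a similar share. Ccl20 was at 1.84, 0.543 and 1.17 CPM in the high-load and 0.222, 0.243 and 0.545 CPM in the low-load kidneys (log2 fold change 1.79, SE 0.58, edgeR adjusted p 0.145), and high-load 2 (10 counts) overlapped with low-load 3 (10 counts).

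**Figure D4:**
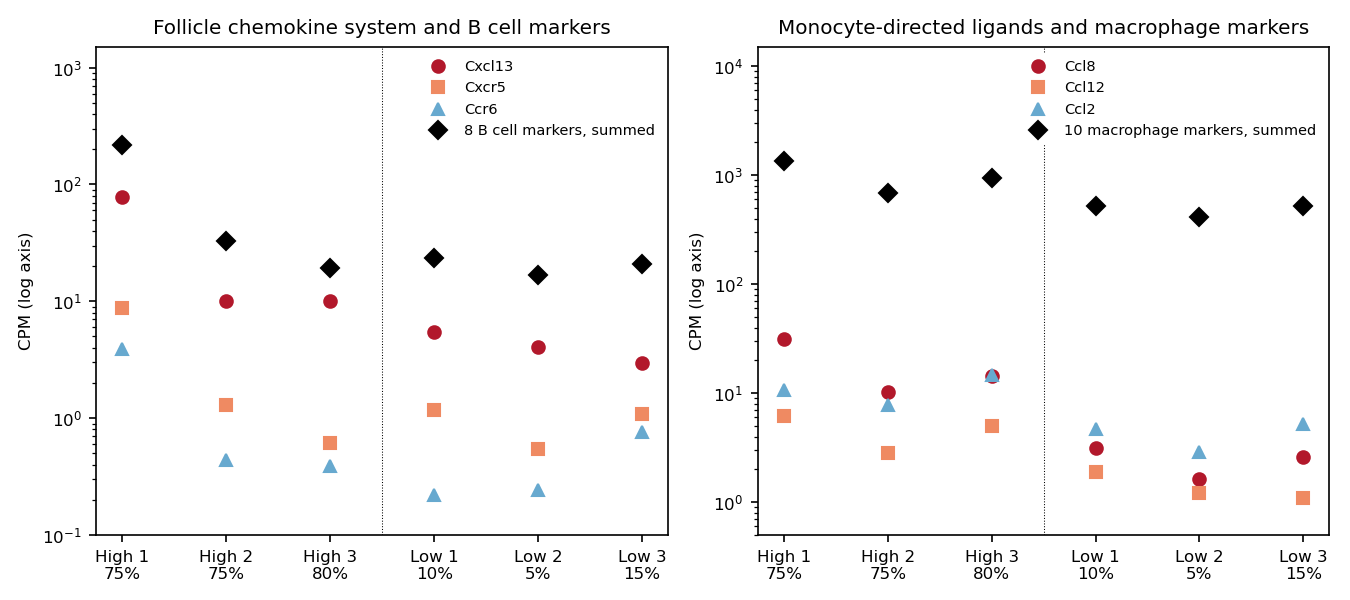
Left, Cxcl13, Cxcr5 and Ccr6 with the sum of 8 B cell markers; right, Ccl8, Ccl12 and Ccl2 with the sum of 10 macrophage markers, each in CPM on a log axis by kidney, with mutation loads under the names. On the left high-load 1 exceeds every other kidney in all 4 series, and on the right every high-load point lies above every low-load point of its series.

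The lymph node homing system around Ccr7, which dendritic cells and naive T cells use, had overlapping groups throughout. Ccr7 was at 4.30, 2.50 and 1.06 CPM in the high-load and 2.66, 0.729 and 1.14 CPM in the low-load kidneys (log2 fold change 0.79, SE 0.64, edgeR adjusted p 0.472), and its log2 fold change was 0.23 without high-load 1 and 1.47 without low-load 1. Its ligand Ccl19 had 5, 6 and 37 counts in high-load 1 to 3 and 46, 0 and 28 in low-load 1 to 3 (log2 fold change -0.67, SE 1.21, edgeR adjusted p 0.768), so each group held libraries near 0 and libraries with 28 or more counts. The sign of its fold change turned without low-load 1. The other Ccr7 ligand, Ccl21a, with a near-identical copy, Ccl21b, had 1 count in all. Ackr4, which clears these ligands, had 8, 7 and 6 counts in high-load 1 to 3 and 13, 5 and 14 in low-load 1 to 3 and was not tested. Of 9 markers of lymphatic vessels and nodes, 6 were tested. At an unadjusted p under 0.05, 2 (Pdpn and Lyve1) were higher and 1 (Prox1) lower, as were 14.0% and 10.2% of all genes. Chst4 was at 0 in every library, and the sum was 79.5, 56.4 and 53.6 CPM in high-load 1 to 3 and 60.4, 53.6 and 55.5 CPM in low-load 1 to 3.

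Epithelial and barrier chemokines had fold changes of both signs. Cxcl17 (chr7:25400053-25412886, minus strand), a ligand of mucosal epithelium that attracts myeloid cells, was at 5.20, 2.77 and 6.62 CPM in high-load 1 to 3, against 0.444, 0.0608 and 0.109 CPM in low-load 1 to 3 (log2 fold change 4.51, SE 0.65, edgeR adjusted p 0.0896). Raw values were 110, 51 and 119 counts in high-load 1 to 3 and 8, 1 and 2 in low-load 1 to 3, and the lowest high-load level was 6.24 times the highest low-load level, the widest gap between groups among the 42 genes. Its log2 fold change lay between 4.11 and 5.71 when any 1 library was left out. Cxcl17 is among the genes that passed the filter through the high-load kidneys. Its low-load values lie near the floor, so the size of the gap and of the fold change is uncertain. The summed level of 6 urothelial markers was 260.5, 4.40 and 3.90 CPM in high-load 1 to 3 and 52.9, 38.2 and 15.4 CPM in low-load 1 to 3, with none of the 6 at 0 in all libraries, and its part in the Cxcl17 values was not tested.

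Ccl28, made by mucosal epithelium to attract plasma cells, was at 40.6, 42.7 and 84.6 CPM in high-load 1 to 3, against 66.5, 17.1 and 33.5 CPM in low-load 1 to 3 (log2 fold change 0.52, SE 0.51, edgeR adjusted p 0.563), with overlapping groups and a log2 fold change of 0.092 without high-load 3. Cxcl14, an epithelial ligand whose receptor is not settled, was at 33.7, 67.9 and 20.4 CPM in high-load 1 to 3, against 49.4, 20.7 and 65.5 CPM in low-load 1 to 3 (log2 fold change -0.15, SE 0.54, edgeR adjusted p 0.884), and its sign turned without high-load 3 or without low-load 3. Ccl25, the thymus and gut ligand of Ccr9, was at 9.17, 9.77 and 11.0 CPM in the high-load and 8.65, 8.26 and 8.28 CPM in the low-load kidneys (log2 fold change 0.25, SE 0.14, edgeR adjusted p 0.315). Its groups did not overlap, and its unadjusted p was 0.120, and it shares 204 exon bases with Elavl1 on the opposite strand. Ccl27a, a skin ligand of Ccr10, had 182, 261 and 245 counts in high-load 1 to 3 and 275, 214 and 234 in low-load 1 to 3 (log2 fold change -0.17, SE 0.21, edgeR adjusted p 0.644), with overlapping groups. The Ccr4 ligands Ccl17 and Ccl22, made by dendritic cells, had log2 fold changes of 0.46 and 0.25 (edgeR adjusted p 0.634 and 0.808), and high-load 2 and low-load 1 were their 2 highest libraries. Of 6 dendritic cell markers 1, the integrin gene Itgax, was higher and 0 lower at an unadjusted p under 0.05, as were 14.0% and 10.2% of all genes. Their sum was 60.9, 75.7 and 46.1 CPM in high-load 1 to 3 and 55.3, 33.7 and 50.6 CPM in low-load 1 to 3.

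Among the remaining receptors and ligands, Ackr2, which clears inflammatory CC ligands, was at 2.08, 1.68 and 1.11 CPM in high-load 1 to 3, against 0.666, 1.15 and 0.599 CPM in low-load 1 to 3 (log2 fold change 1.02, SE 0.38, edgeR adjusted p 0.175). High-load 3 lay just under low-load 2, so the groups overlapped. Ackr1, the Duffy receptor of venules and red cells, had 16, 4 and 1 counts in high-load 1 to 3 and 4, 2 and 4 in low-load 1 to 3. Xcl1, a ligand from natural killer and CD8 T cells, had 15, 10 and 7 counts in high-load 1 to 3 and 5, 2 and 10 in low-load 1 to 3. Neither was tested, and their groups overlapped. Ackr1 shares 361 exon bases with Cadm3 on the same strand, and on the opposite strand Ackr4 shares 479 with Acad11 and Xcl1 shares 98 with Gm20743.

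Of 23 ligand and receptor pairs considered, both sides were tested in 15. Both fold changes were above 1 in 12, the ligand was below and the receptor above in 2, and both were below in 1 (Cxcl12 and Ackr3). In 0 pairs did both sides have groups that do not overlap, in the higher direction. Count ratios could be formed for 14 pairs, since Ccl19 was at 0 in a library, and they compare groups, not genes, as counts are not per length. The ligand to receptor ratio was higher in all high-load kidneys for 6 pairs (Ccl2, Ccl7 and Ccl12 to Ccr2, Ccl7 to Ccr1, Cxcl9 to Cxcr3 and Cxcl13 to Cxcr5), lower for 2 (Cxcl12 to Cxcr4 and to Ackr3) and overlapped for 6. The share of other gene pairs with such ratios was not computed, so these counts have no background. The pairs share genes, and each ligand of a pair without overlap also had groups that did not overlap on its own. With 3 against 3 kidneys an exact permutation test of a ratio cannot go below a two-sided p of 0.1, so none was run. For Cxcl13 to Cxcr5 the nearest values were 2.96 in high-load 2 and 2.90 in low-load 2.

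**Figure D5:**
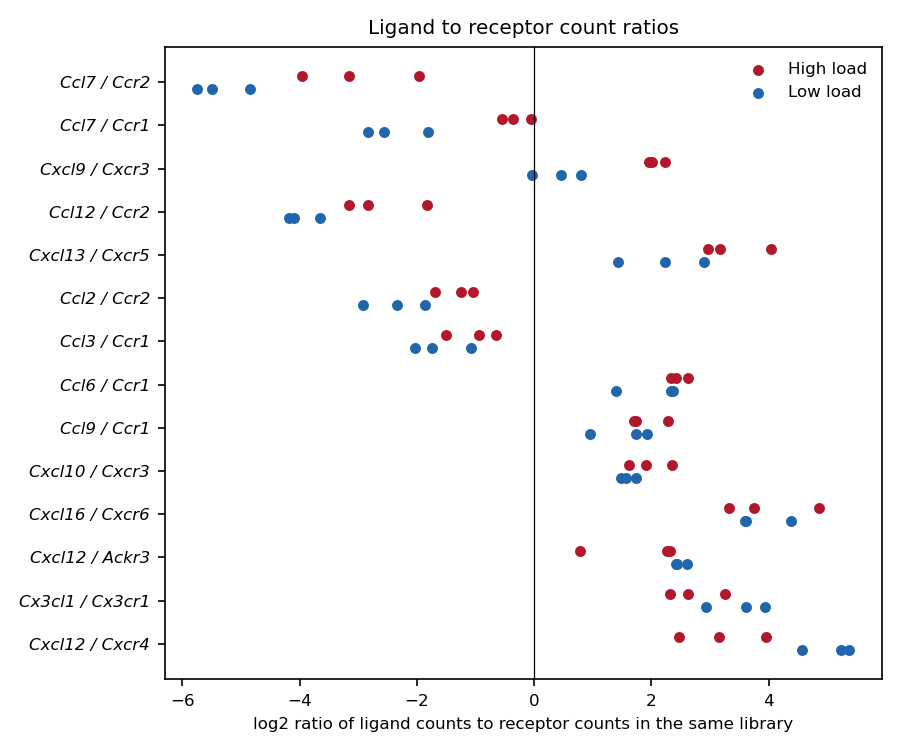
For 14 ligand and receptor pairs, points give the log2 ratio of ligand counts to receptor counts in each kidney, high load in the upper row of each pair and low load in the lower. The 3 Ccr2 pairs and Ccl7 to Ccr1, Cxcl9 to Cxcr3 and Cxcl13 to Cxcr5 have high-load points to the right of low-load points; both Cxcl12 pairs have them to the left.

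Genes that act with chemokines were described by 3 further lists. Of all genes tested, 14.0% were higher and 10.2% lower at an unadjusted p under 0.05. Of 28 genes of receptor signalling, 27 were tested, 15 were higher and 0 lower at an unadjusted p under 0.05, and 0 had an adjusted p under 0.05, with a median log2 fold change of 0.52. Pik3r5, the adaptor of the phosphoinositide 3-kinase that these receptors switch on, was at 12.4 ± 3.02 CPM in high-load and 5.49 ± 1.45 CPM in low-load kidneys (SD, n = 3) (log2 fold change 1.17, SE 0.27, edgeR adjusted p 0.102). Rac2, a small GTPase of blood cells that moves the cytoskeleton, was at 48.4 ± 25.1 CPM in high-load and 18.4 ± 4.22 CPM in low-load kidneys (SD, n = 3) (log2 fold change 1.39, SE 0.37, edgeR adjusted p 0.120).

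Counts of the next 2 lists stand at the same unadjusted limit, which 14.0% of all genes passed as higher and 10.2% as lower. Of 20 genes that induce or carry signals to chemokine promoters, 17 were tested, 13 were higher and 0 lower, and 0 had an adjusted p under 0.05, with a median of 0.80. Irf7, a transcription factor induced by interferon, was at 74.0 ± 28.3 CPM in high-load and 26.6 ± 2.11 CPM in low-load kidneys (SD, n = 3) (log2 fold change 1.48, SE 0.26, edgeR adjusted p 0.0946). Relb, a subunit of NF-kappaB, was at 24.0 ± 5.06 CPM in high-load and 12.5 ± 2.01 CPM in low-load kidneys (SD, n = 3) (log2 fold change 0.94, SE 0.19, edgeR adjusted p 0.0967). Of 17 genes that trim chemokines or hold them on the cell surface, 16 were tested, 5 were higher and 1 lower, and 0 had an adjusted p under 0.05, with a median of 0.20. Mmp14, a membrane metalloprotease, was at 52.0 ± 11.8 CPM in high-load and 24.8 ± 2.96 CPM in low-load kidneys (SD, n = 3) (log2 fold change 1.07, SE 0.18, edgeR adjusted p 0.0936), and Mmp2, a protease that can cut Ccl7 and Cxcl12, at 35.2 ± 6.18 CPM in high-load and 10.3 ± 5.06 CPM in low-load kidneys (SD, n = 3) (log2 fold change 1.76, SE 0.38, edgeR adjusted p 0.0983). The lower gene was Ext1, which builds the heparan sulfate chains that chemokines bind, at 46.6 ± 2.25 CPM in high-load and 54.5 ± 2.93 CPM in low-load kidneys (SD, n = 3) (log2 fold change -0.22, SE 0.081, edgeR adjusted p 0.167).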

How the data were processed

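Kidney RNA of 6 mice was sequenced as 150-base read pairs on a DNBSEQ platform from TruSeq libraries, per the labels' protocols. The authors deposited raw read counts per Ensembl gene, 1 column per kidney; tools listed in the submitters' processing notes, without roles, are HISAT2 2.2.1, featureCounts 2.0.1, fastp 0.23.2, SAMtools 1.11 and edgeR, with the build mm10, and the annotation, strand and multi-mapping rules are unknown here. Symbols, exon lengths and positions came from GENCODE M21. Reads of genes with near-identical copies (Ccl21a, Ccl27a) are uncertain.

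Counts were filtered with filterByExpr (minimum 10), scaled by TMM and tested in edgeR 4.0.16 (R 4.3.3) by robust quasi-likelihood fits of group alone, with Benjamini-Hochberg adjustment over all genes at 0.05. Standard errors are the log2 fold change over the root of F. RPKM are TMM-scaled CPM per kilobase of merged exons. The code was tested on simulated data. Alternatives used DESeq2 1.42.0 and limma-voom 3.58.1, other scalings and filters, a replicate block, load as a number and leaving out each kidney. Replicate pairs differed by more than counting noise.

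The genes, lists and tests were chosen with earlier results of these data known. Values are printed per library for genes with an unadjusted p under 0.05, a mean of at least 5 CPM, or a partner of such a gene, and for genes under the filter as counts; from other lists those with the smallest p are named, except S100a8 and Ly6g, chosen after their values were seen; some genes the rule takes are not reported here. The urothelial list and the division by macrophage markers were also added after the data were seen.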

Additional observations from a re-analysis of the deposited data

How the results depend on the processing

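None of the 37 tested genes was called by edgeR, by edgeR with DESeq2 size factors, library totals, no robust estimation or load as a number, or by limma-voom. Without a filter 2 were called (Cxcl16 and Cxcl17; 50 genes in all), and DESeq2 called 14 (1698 in all) with 18 at an adjusted p under 0.1. Over all genes limma-voom called 0 and load as a number 10, and limma-voom had 0 chemokine genes at an adjusted p under 0.1. Leaving out 1 kidney gave 0 to 10 called chemokine genes and 0 to 807 called genes, the highest numbers without high-load 2; 0 to 17 at an adjusted p under 0.1; 14 to 22 higher and 0 to 1 lower at an unadjusted p under 0.05; medians of 0.72 to 1.23; and 17 to 24 higher and 1 to 2 lower genes without overlap. Library totals, no filter, and leaving out high-load 1 or low-load 3 left 0 lower genes; the unadjusted p of Cxcl12 was then 0.0531 to 0.111. Without low-load 1 or 2 it was 0.0584 and 0.0986, and the lower gene was Ackr3 and Ackr4 in turn. Divided by macrophage markers, 8 genes lay higher and 4 lower without overlap, and the share of all genes on that scale was not computed. Replicate numbers did not pair the kidneys: same-numbered deviations correlated at 0.124, -0.182 and 0.049, and 3 of 6 libraries correlated best with their own number. With the replicate block 0 chemokine genes and 1 gene in all were called, with 21 higher and 2 lower at an unadjusted p under 0.05. The sign turned in 5 genes, none at an unadjusted p under 0.05: Ccl19 was at 0.12 in limma-voom, and over the kidneys left out the log2 fold change ran from -2.27 to 0.15 in Ccl19, -0.12 to 0.96 in Ccl22, -0.30 to 0.028 in Ccl27a, -0.74 to 0.21 in Cxcl14 and -0.23 to 0.19 in Cx3cl1. The causes were not tested. Counts without overlap were not recomputed where only the test changed. For fits that left out a kidney, shares of all genes without overlap, at the unadjusted limit or at an adjusted p under 0.1 were not computed. Those counts of chemokine genes have no background, and groups separate more easily when fewer kidneys are compared.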
